A study of Mus musculus with 9 samples.

Results

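The proteasome is the protease that removes ubiquitin-tagged proteins from the cytosol and nucleus. This set of genes holds its constitutive subunits, its activators and inhibitor, and the chaperones that assemble it. Members were all probes of the array whose gene symbol began with Psma, Psmb, Psmc, Psmd, Psme, Psmf or Psmg and a digit, leaving out the interferon-induced catalytic subunits Psmb8, Psmb9 and Psmb10. That gave 44 genes of the 30869 symbols on the array, read by 78 probes. Of these, 63 probes of 39 genes were detected on enough arrays to be tested. One of the 39, Psmc3ip, entered by its symbol alone, since it encodes a cofactor of meiotic recombination and not a proteasome subunit.

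Levels come from 9 Illumina MouseWG-6 v2.0 bead arrays, 3 per group, hybridised with RNA of mouse aHSCs (activated hepatic stellate cells), the scar-forming cells of the liver. All samples are labelled male and C57/Bl6, although the methods give both sexes for work in vitro. The labelled genotype is WT1GFP/+ throughout, in which 1 allele of the Wt1 locus carries green fluorescent protein (GFP), so every group, the WT1-negative cells included, had a single intact allele. WT1-high cells (labelled GFP high, replicates 1, 8 and 29) and WT1-intermediate cells (labelled GFP low, replicates 1, 8 and 30) came directly out of livers given carbon tetrachloride over 8 weeks, in animals aged 8 to 12 weeks at the start. WT1-negative cells (labelled GFP negative, replicates 3, 11 and 14) were sorted after quiescent cells of uninjured mice had been cultured on plastic for 7 days. Liver or culture origin and WT1 status coincide in every comparison with WT1-negative cells, so their effects cannot be told apart. Wt1 itself was not analysed here, so the sort was not checked on the gene that defines it.

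As background, the 20S core is a barrel of stacked rings. Outer rings of alpha subunits (Psma genes) form the gate, and inner rings of beta subunits (Psmb genes) hold the catalytic sites. The 19S cap binds the core with a ring of ATPases (Psmc genes), which unfold the substrate, and with non-ATPase subunits (Psmd genes), which bind and remove ubiquitin. The Psme genes encode caps that open the gate without ubiquitin, and Psmf1 encodes the inhibitor PI31. In fibroblast-like cells the complex is needed for cell-cycle progression and for turnover of misfolded and regulatory proteins, and the transcription factor encoded by Nfe2l1 is known to raise many subunit genes together.

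The array reads a gene through probes of 50 bases, and for this gene set the base composition of the probe moved with the result. The sequences below are therefore shown first, with each G and C in capitals and each A and T in lower case, written 5′ to 3′ as deposited. The first 2 read core subunits that were lower in the sorted liver cells than in WT1-negative cells, on chromosomes 2 and 11.
Psma7 (ILMN_2630328): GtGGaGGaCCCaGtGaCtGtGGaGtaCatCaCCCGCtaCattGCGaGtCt
Psmb6 (ILMN_2895862): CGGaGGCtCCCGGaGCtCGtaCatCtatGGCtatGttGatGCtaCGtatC
These hold 56% and 54% G and C. The next 4 are pairs for 1 gene each, Psmc2 on chromosome 5 and Psmd11 on chromosome 11, in which the probe poorer in G and C was higher in liver cells and the other did not pass the test.
Psmc2 (ILMN_2764737): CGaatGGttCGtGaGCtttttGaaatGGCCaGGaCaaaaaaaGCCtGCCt
Psmc2 (ILMN_2918018): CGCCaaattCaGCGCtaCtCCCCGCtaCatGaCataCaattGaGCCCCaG
Psmd11 (ILMN_1214057): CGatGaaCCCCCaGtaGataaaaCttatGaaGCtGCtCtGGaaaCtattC
Psmd11 (ILMN_2888116): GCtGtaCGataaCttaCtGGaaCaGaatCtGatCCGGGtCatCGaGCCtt
The Psmc2 pair holds 46% and 54% G and C, and the Psmd11 pair 42% and 48%. The last 4 read Psmd6 on chromosome 14 and Psmd14 on chromosome 2, each read by a pair of probes that were both higher in liver cells.
Psmd6 (ILMN_1241910): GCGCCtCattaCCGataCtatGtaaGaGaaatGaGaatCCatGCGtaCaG
Psmd6 (ILMN_1254132): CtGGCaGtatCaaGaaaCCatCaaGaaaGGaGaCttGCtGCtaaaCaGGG
Psmd14 (ILMN_2771815): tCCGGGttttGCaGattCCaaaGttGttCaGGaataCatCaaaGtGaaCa
Psmd14 (ILMN_2933914): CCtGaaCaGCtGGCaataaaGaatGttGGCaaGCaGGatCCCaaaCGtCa
They hold 44%, 46%, 40% and 48% G and C. Where in its transcript a probe lies was not analysed here, and the deposited table names no genome build.

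Mean signal per array lay between 147.5 and 288.9, median negative control signal between 76.29 and 93.57, and 38.1% to 43.67% of the 45281 probes were detected. All values below are log2 normalised intensities, so a difference of 1 is a 2-fold change, and where a gene has several tested probes the brightest on average is reported. Marker genes of other cells moved with the groups. The summed normalised intensity of 15 macrophage genes was 5195 to 8449 (WT1-high), 16379 to 28080 (WT1-intermediate) and 56694 to 61720 (WT1-negative). For 7 mesothelial genes it was 26992 to 32870, 16078 to 22688 and 163 to 207, with 7, 7 and 2 of the 7 detected on at least 2 arrays. For 7 genes of cell division it was 216 to 399, 192 to 252 and 2562 to 3193. Of 10 stellate cell genes, 7 were tested and Lrat, Gfap and Rgs5 were not detected on enough arrays, while the sums of the 7 were 5133 to 6567, 3781 to 4816 and 9294 to 10723. In the same order of groups, 10 endothelial genes summed to 553 to 752, 1047 to 1081 and 1628 to 2169, and 7 skeletal muscle genes to 140 to 162, 159 to 186 and 6636 to 10134. The 6 hepatocyte genes tested summed to 489 to 2395, 615 to 1853 and 158 to 249, without Alb, Tat, Fabp1 and Fgb, and the 7 T and NK cell genes to 649 to 986, 581 to 1052 and 150 to 167, without Cd4 and Cd8a, none of which was detected on enough arrays. A sum is weighted to the brightest genes. Against WT1-negative cells, 2 of the 7 stellate cell genes were called higher and 3 lower in each liver group. Of the 15 macrophage genes, 2 were called higher and 11 lower with WT1-high cells, and 3 and 7 with WT1-intermediate cells. Of all genes tested, 27.6% and 25.9% were called higher, and 32.1% and 32% lower. The part of other cell types, and of cell division, in the differences below was not tested.

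The first comparison asked whether proteasome transcripts differ between the WT1-positive populations of the same injured livers. Of the 63 member probes 0 passed the test, against 3.55% of all 20573 probes tested (0.904% higher and 2.64% lower in WT1-high cells; limma, Benjamini-Hochberg adjusted p under 0.05). The smallest adjusted p was 0.175, and 3 member probes had an unadjusted p under 0.05. Across this contrast the 39 genes had a median log2 difference of 0.04, equal to that of all genes tested (0.04). Their differences ran from -0.34 (Psmb6) to 0.75 (Psmd9). Under quantile normalisation, the 95% intervals of 62 of the 63 probes excluded a 2-fold difference in either direction, and those of 47 excluded a 1.5-fold one. These intervals cover the spread between arrays and not the choice of scaling, whose effect is given below. The groups failed to overlap in 3 member probes (4.76%), against 20.1% of all probes.

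Psmd9 was the exception to the 2-fold bound. It encodes a chaperone that helps to assemble the 19S ATPase ring. Its reported probe (ILMN_2593662, chromosome 5) read 5.35, 6.12 and 6.39 on the WT1-high arrays and 5.12, 5.63 and 4.84 on the WT1-intermediate arrays. The groups overlapped through WT1-high replicate 1, the difference was 0.75 (95% interval 0.16 to 1.35), and the adjusted p was 0.175 (limma, Benjamini-Hochberg). Without WT1-high replicate 1 this probe was the only member called. The second Psmd9 probe (ILMN_2594811) differed by 0.15.

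Within the core, Psma7 differed by 0.03 (95% interval -0.28 to 0.34), Psmb1 by 0.04 (-0.26 to 0.33) and Psmb6 by -0.34 (-0.79 to 0.11). The catalytic subunit genes Psmb5 and Psmb7 differed by -0.30 and 0.01. Of the activators, Psme1 differed by 0.23, Psme2 by -0.01, Psme3 by 0.33 and Psme4 by -0.02, all short of the test. Array weights, other probe filters and replicate blocks brought 0 members past the threshold, although 8.73% of all probes passed with a random block and 8.05% with a fixed one that took 29 and 30 as 1 animal. One scaling did: with each array scaled by the median of all its probes in place of quantile normalisation, 11 member probes were called, all higher in WT1-high cells, among 12.8% of all probes, and the median member difference became 0.71 while that of all genes became 0.48. With the median taken over the tested probes only, chosen after the values were seen, 0 were called and the median difference was 0.21.

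**Figure D1:**
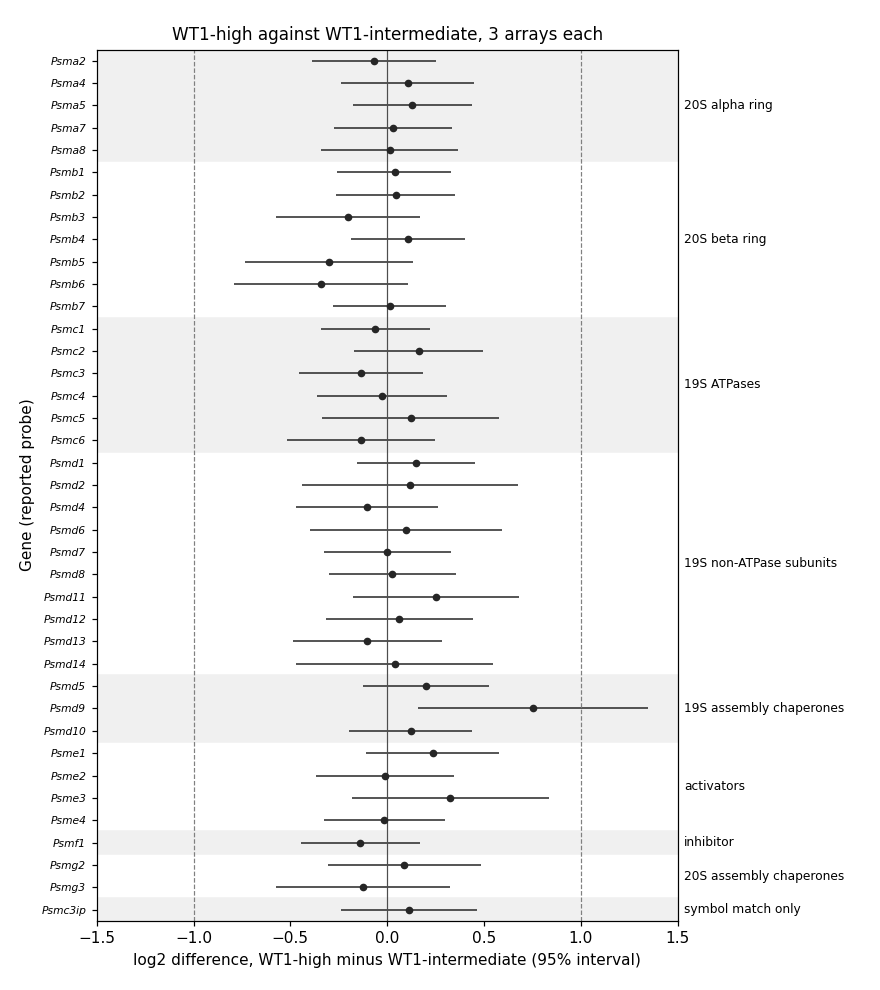
Log2 difference between WT1-high and WT1-intermediate aHSCs for the reported probe of each of the 39 tested genes, by role in the complex; points are limma estimates, bars 95% intervals, and dashed lines mark 2-fold. The Psmd9 interval, 0.16 to 1.35, is the only one of the 39 that crosses a dashed line.

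The other comparisons set each WT1-positive population against WT1-negative cells from culture. They share the 3 WT1-negative arrays, so their values are given side by side and are not independent of each other. With WT1-high cells, 49 of the 63 member probes (77.8%) passed the test, against 59.6% of all probes, so most probes of any kind differed here. Of the members, 35 were lower in WT1-high cells (55.6%, against 33.1% of all probes) and 14 were higher (22.2%, against 26.5%). With WT1-intermediate cells, 43 passed (68.3%, against 58% of all probes), 32 lower (50.8%, against 33.6%) and 11 higher (17.5%, against 24.4%). Scaling by the median of all probes changed the latter split to 43 lower and 7 higher, with 53.3% of all probes called. It left 28 of the 63 member probes called with WT1-high cells (19 lower and 9 higher), against 46.4% of all probes. The members were then called no more often than all probes in that comparison. The groups did not overlap in 56 member probes (88.9%, against 68.4% of all probes) with WT1-high and in 49 (77.8%, against 65.5%) with WT1-intermediate cells. Fewer cells of a type and less RNA per cell cannot be told apart in such samples.

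By gene, 26 of the 39 were lower in WT1-high cells (66.7%, against 32.1% of all genes tested) and 6 higher (15.4%, against 27.6%). Their median log2 difference was -0.49 beside -0.07 for all genes tested. In WT1-intermediate cells 23 were lower (59%, against 32%) and 4 higher (10.3%, against 25.9%), with a median of -0.50 beside -0.10. The shift was visible on every array: the median level of the member genes was 9.39, 9.20 and 9.17 (WT1-high), 9.54, 9.14 and 9.35 (WT1-intermediate) and 9.61, 9.65 and 9.76 (WT1-negative), with no overlap between the liver and the cultured cells. The spread between replicates had a median SD over the 39 genes of 0.14 (WT1-high), 0.17 (WT1-intermediate) and 0.10 (WT1-negative).

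**Figure D2:**
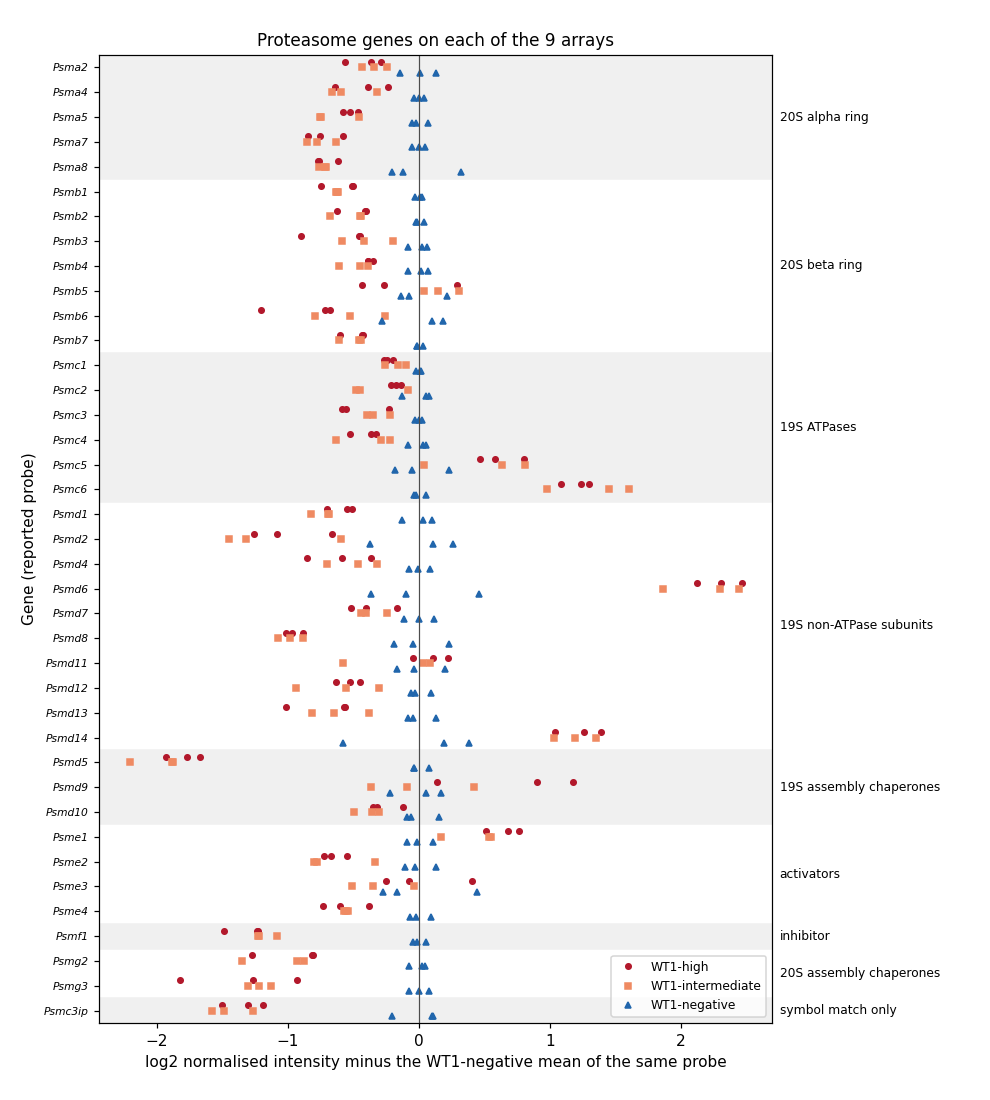
Log2 normalised intensity of the reported probe of each gene on all 9 arrays (3 per group), relative to the mean of the 3 WT1-negative arrays, by role in the complex. Nearly all core genes lie left of 0 in both WT1-positive groups, while Psmd6, Psmd14 and Psmc6 lie to the right and Psmd2, Psmd5, Psmf1, Psmg3 and Psmc3ip lie more than 1 to the left on average.

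The core moved in 1 direction where it passed the test. Of 12 core genes tested, 11 were lower with WT1-high cells (91.7%, against 32.1% of all genes tested). With WT1-intermediate cells 9 were lower (75%, against 32%), and none was higher in either comparison. The differences ran from -0.87 to -0.14 and from -0.76 to 0.17. All 5 alpha-ring genes were lower in WT1-high cells and 4 of 5 in WT1-intermediate cells, where Psma2 (-0.34) missed the threshold. With each array scaled by the median of all its probes, 3 of the 11 core calls with WT1-high cells remained, those of Psma7, Psma8 and Psmb6. These core counts include Psma8, which passed the detection filter through the WT1-negative arrays alone. Outside the core the same scaling ended the calls of Psmc3, Psmc4, Psmc5, Psmd1, Psmd12, Psme1, Psme2 and Psme4 with WT1-high cells.

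Psma7, an alpha subunit of the gate ring, read 9.87, 9.60 and 9.69 (WT1-high), 9.81, 9.59 and 9.67 (WT1-intermediate) and 10.39, 10.45 and 10.50 (WT1-negative). Every liver array was below every cultured one. The difference was -0.73 (SE 0.14, adjusted p 0.00094) with WT1-high and -0.76 (SE 0.14, adjusted p 0.000769) with WT1-intermediate cells (limma, Benjamini-Hochberg), which is 1.65-fold and 1.69-fold lower. Its second probe gave -0.71 and -0.86. Psma8, the alpha subunit best known from testis, was detected on 0 of 6 liver arrays and on all 3 WT1-negative arrays. It was at least 1.34-fold lower in WT1-high and at least 1.33-fold lower in WT1-intermediate cells. Psma8 passed the detection filter through the WT1-negative arrays alone, so its calls carry no support beyond that detection.

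Among the beta-ring genes, Psmb6 had the largest fall in WT1-high cells. It encodes the subunit with caspase-like activity and read 10.52, 10.03 and 10.55 (WT1-high), 10.98, 10.44 and 10.71 (WT1-intermediate) and 11.42, 10.95 and 11.33 (WT1-negative). WT1-high arrays lay below all WT1-negative arrays, whereas 1 WT1-intermediate array reached into their range. The differences were -0.87 (SE 0.20, adjusted p 0.00356) and -0.53 (SE 0.20, adjusted p 0.0448; limma, Benjamini-Hochberg), and the latter call was lost without WT1-high replicate 1 (-0.52), without WT1-negative replicate 3 (-0.44) or 14 (-0.48), and without 8 (-0.39) or 30 (-0.52) of its own group. Psmb1, a non-catalytic neighbour in the ring, read 10.57, 10.33 and 10.57, then 10.45, 10.45 and 10.46, then 11.05, 11.08 and 11.10 in the same order of groups. Both liver groups were clear of the cultured arrays, by -0.59 (adjusted p 0.00294) and -0.62 (adjusted p 0.00208; limma, Benjamini-Hochberg).

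Of the remaining catalytic subunits 1 passed the test. Psmb7, which carries the trypsin-like activity, was lower by reported probe (-0.49 and -0.50), with 3 of its 4 probes called lower in each comparison. Psmb5, which carries the chymotrypsin-like activity, was the only core gene called in neither comparison. Its arrays read 8.49, 8.32 and 9.04 (WT1-high), 9.06, 8.79 and 8.90 (WT1-intermediate) and 8.61, 8.68 and 8.97 (WT1-negative). The groups overlapped, with differences of -0.14 (95% interval -0.57 to 0.30) and 0.17 (-0.27 to 0.60), which leaves room for a fall as large as that of Psmb7 in WT1-high cells. Psmb2, Psmb3 and Psmb4 fell by 0.48, 0.60 and 0.38 in WT1-high cells. Their values in WT1-intermediate cells were -0.52, -0.40 and -0.48, of which that of Psmb3 missed the threshold.

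In the ATPase ring of the cap, calls went in both directions. Of its 6 genes, Psmc3 (-0.46) and Psmc4 (-0.41) were lower and Psmc5 (0.62) and Psmc6 (1.21) higher in WT1-high cells. These shares, 33.3% lower and 33.3% higher, were near those of all genes tested (32.1% and 27.6%). Psmc6 (1.34) was the only one called in WT1-intermediate cells (16.7% higher, against 25.9% of all genes). The second probes of Psmc4 and Psmc5 went the other way without a call. In WT1-high and WT1-intermediate cells they stood at 0.43 and 0.40 (Psmc4, ILMN_2728516) and at -0.41 and -0.23 (Psmc5, ILMN_1220632). The values of Psmc4 and Psmc5 therefore describe the reported probe and not the gene. Psmc3 read 9.53, 9.20 and 9.17 (WT1-high), 9.54, 9.41 and 9.37 (WT1-intermediate) and 9.73, 9.79 and 9.76 (WT1-negative), so all liver arrays were lower, with an adjusted p of 0.0185 (WT1-high) and 0.0791 (WT1-intermediate) (limma, Benjamini-Hochberg). The former call was lost without WT1-high replicate 8 (-0.41) or 29 (-0.39) or WT1-negative replicate 14 (-0.46). Psmc6 was detected on all 6 liver arrays and on 0 of 3 WT1-negative arrays. It read 5.54, 5.33 and 5.48 (WT1-high), 5.69, 5.22 and 5.85 (WT1-intermediate) and 4.30, 4.23 and 4.21 (WT1-negative). Against the background limit it was at least 1.80-fold and at least 1.98-fold higher in liver cells. Psmc6 passed the detection filter through the liver arrays alone, so its calls carry no support beyond that detection. Its probe held 38% G and C, the lowest among the members. After adjustment of each array for G and C its differences were 0.28 with WT1-high cells, no longer called, and 0.45 with WT1-intermediate cells, both under these bounds.

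Psmc1 and Psmc2, which complete the ring, passed in neither comparison by reported probe, at -0.24 and -0.18 in WT1-high and -0.17 and -0.34 in WT1-intermediate cells. The other Psmc2 probe shown above (ILMN_2764737) read 7.01, 7.40 and 7.76 (WT1-high), 7.59, 7.09 and 7.28 (WT1-intermediate) and 5.94, 5.32 and 5.71 (WT1-negative). That probe was higher on every liver array, by 1.73 and 1.66 (limma, Benjamini-Hochberg adjusted p 6.07e-05 and 9.32e-05).

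The non-ATPase subunits of the cap held the largest rises and some of the clearest falls. Of 10 genes tested, 6 were lower (60%) and 2 higher (20%) in each comparison, and the 2 that were higher were Psmd6 and Psmd14 in both. Of all genes tested, 32.1% were lower and 27.6% higher with WT1-high cells. With WT1-intermediate cells these were 32% and 25.9%. Psmd6, a scaffold subunit of the lid, read 6.85, 7.03 and 7.19 (WT1-high), 7.17, 6.59 and 7.02 (WT1-intermediate) and 5.19, 4.37 and 4.63 (WT1-negative), where it was detected on 2 of 3 arrays. All liver arrays were more than 1 unit above all cultured arrays. It rose by 2.30 (SE 0.23, adjusted p 6.36e-06) and 2.20 (SE 0.23, adjusted p 1.08e-05; limma, Benjamini-Hochberg), the largest change of any member probe in either comparison on this scale. Without background correction, which compresses probes near background, the rises were 0.94 and 0.88, both still called. This probe met the detection filter only because of the liver arrays. The filter therefore favoured the direction of its rise, and its calls carry no separate support.

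Psmd14 encodes the deubiquitinase that removes the ubiquitin chain as the substrate enters. Its reported probe read 8.70, 8.92 and 9.05 (WT1-high), 9.01, 8.69 and 8.85 (WT1-intermediate) and 8.04, 7.08 and 7.85 (WT1-negative). No liver array reached down to the cultured ones, and the rises were 1.23 (SE 0.23, adjusted p 0.000804) and 1.19 (SE 0.23, adjusted p 0.00106; limma, Benjamini-Hochberg). The second probe rose by 1.86 and 1.82. Scaling by the median of all probes ended the call of the reported probe in WT1-intermediate cells (0.46). Among WT1-negative arrays, replicate 11 was lowest for both Psmd14 probes and for the reported Psmd6 probe.

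The falls included Psmd2, Psmd8, Psmd13, Psmd4, Psmd1 and Psmd12. Psmd2, a scaffold of the cap, had the largest, at 4.85, 4.67 and 5.26 (WT1-high), 5.33, 4.48 and 4.61 (WT1-intermediate) and 5.56, 6.19 and 6.04 (WT1-negative). The arrays did not overlap, but these levels were near background, with detection on only 1 of 3 WT1-intermediate arrays. The differences were -1.0 (SE 0.26, adjusted p 0.00553) and -1.12 (SE 0.26, adjusted p 0.00295; limma, Benjamini-Hochberg). Psmd8, a lid subunit read well above background, fell by 0.96 and 0.98. Psmd13, another lid subunit, fell by 0.72 and 0.62, and Psmd4, a ubiquitin receptor, by 0.60 and 0.50. Psmd1, which pairs with Psmd2 as a scaffold, fell by 0.59 and 0.74 by reported probe. Its probe ILMN_2496534 was also called lower (-0.39 and -0.42), while ILMN_2915861 stood at 0.33 and 0.40 without a call. Adjusted for G and C, ILMN_2915861 was called higher (0.64 and 0.73) and the other Psmd1 probes stayed lower. Psmd7, the partner of Psmd14, stood at -0.36 in both and missed the threshold (limma, Benjamini-Hochberg adjusted p 0.0541 and 0.0551), and Psmd11 stood at 0.10 and -0.16.

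The assembly chaperones are not part of the finished complex. Psmd5, which holds ATPase subunits before the cap joins the core, had the largest fall among the members on this scale. It read 5.03, 5.12 and 4.87 (WT1-high), 4.91, 4.59 and 4.92 (WT1-intermediate) and 6.76, 6.76 and 6.87 (WT1-negative). The lowest cultured array was more than 1.5 units above the highest liver array, and the differences were -1.79 (SE 0.15, adjusted p 1.88e-06) and -1.99 (SE 0.15, adjusted p 1.08e-06; limma, Benjamini-Hochberg). Without background correction the falls were 0.73 and 0.79, still called but smaller than those of Psmf1 (1.09 and 0.98). Psmd10, also known as gankyrin, was at -0.26 in WT1-high and was lower by 0.38 in WT1-intermediate cells. Psmd9 was higher by 0.74 in WT1-high cells with overlapping groups and stood at -0.01 in WT1-intermediate cells. Its call was lost without WT1-high replicate 8 (0.65) or 29 (0.53) or WT1-negative replicate 11 (0.62) or 14 (0.76).

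Psmg3 and Psmg2 encode chaperones that build the alpha ring. Psmg3 read 6.49, 5.92 and 6.82 (WT1-high), 6.63, 6.45 and 6.53 (WT1-intermediate) and 7.83, 7.67 and 7.75 (WT1-negative). It fell by 1.34 (adjusted p 0.000177) and 1.22 (adjusted p 0.000395), without overlap. The reported Psmg2 probe, of 60% G and C, read 7.85, 7.39 and 7.86, then 7.74, 7.32 and 7.79, then 8.72, 8.59 and 8.69. It fell by 0.96 and 1.05 (limma, Benjamini-Hochberg adjusted p 0.000787 and 0.000463). The other Psmg2 probes went the other way. ILMN_3153450 was called higher, by 0.635 and 0.48, and ILMN_1224609 stood at 0.436 and 0.424 without a call. The fall therefore describes the reported probe and not the gene.

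The activators split. Psme1 and Psme2 encode the alternating subunits of the interferon-induced PA28 cap. Psme1 read 11.34, 11.25 and 11.08 (WT1-high), 11.12, 11.11 and 10.74 (WT1-intermediate) and 10.48, 10.68 and 10.56 (WT1-negative), so it was higher on all liver arrays, by 0.65 (adjusted p 0.00394) and 0.42 (adjusted p 0.0384). Psme2 read 7.96, 7.78 and 7.83, then 8.17, 7.73 and 7.70, then 8.63, 8.40 and 8.47, so it was lower on all liver arrays, by 0.65 (adjusted p 0.00521) and 0.64 (adjusted p 0.0059; limma, Benjamini-Hochberg). The reported probes held 54% (Psme1) and 60% (Psme2) G and C. Adjusted for G and C, Psme2 stood at -0.30 and -0.26 and was called in neither comparison. The call of Psme1 in WT1-intermediate cells did not last, since its value became -0.21 with each array scaled by the median of all its probes, where the median of all genes was -0.43, and it missed the threshold without WT1-intermediate replicate 1 (0.35) or 8 (0.36) or, among cultured arrays, replicate 3 (0.37) or 14 (0.42).

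Psme3, which encodes the nuclear cap PA28 gamma, read 7.93, 7.76 and 8.41 (WT1-high), 7.97, 7.65 and 7.50 (WT1-intermediate) and 7.84, 8.45 and 7.74 (WT1-negative), with overlapping groups and differences of 0.03 and -0.30. Psme4, which encodes the cap PA200, read 9.29, 9.08 and 8.94, then 9.12, 9.14 and 9.10, then 9.61, 9.65 and 9.77. It was lower on all liver arrays, by 0.57 (adjusted p 0.00478) and 0.56 (adjusted p 0.00578; limma, Benjamini-Hochberg).

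Psmf1 encodes PI31, known as an inhibitor of the core in the test tube. It read 8.18, 7.91 and 8.17 (WT1-high), 8.32, 8.17 and 8.18 (WT1-intermediate) and 9.46, 9.39 and 9.36 (WT1-negative). Every liver array was more than 1 unit below every cultured one, and the falls were 1.32 (adjusted p 1.13e-05) and 1.18 (adjusted p 3.2e-05; limma, Benjamini-Hochberg). Its second probe, near background, stood at 0.25 and -0.07. Psmc3ip, the recombination cofactor that shares only the symbol, read 6.28, 5.97 and 6.17 (WT1-high), 5.98, 6.20 and 5.89 (WT1-intermediate) and 7.57, 7.57 and 7.26 (WT1-negative). It fell by 1.33 and 1.45. A link with the higher levels of cell-division genes of the cultured cells given above was not tested.

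**Figure D3:**
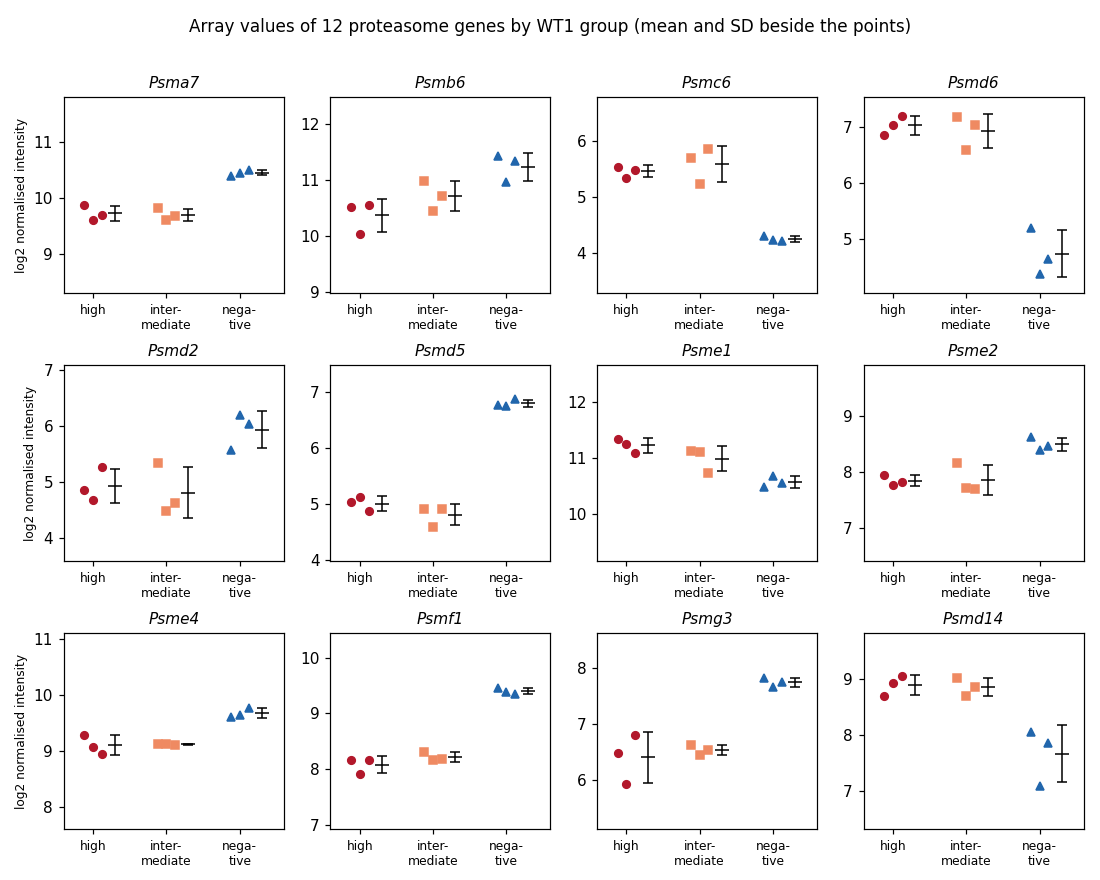
Log2 normalised intensity of 12 proteasome genes on the 3 arrays of each WT1 group (symbols) with the mean and SD beside them; every panel spans 3.5 log2 units. Psmc6, Psmd6, Psmd14 and Psme1 are higher in both liver groups and the other 8 are lower, with Psmd5 and Psmf1 the most widely separated of the falls.

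Of 26 further genes of the ubiquitin-proteasome pathway, 22 were tested. In WT1-high cells 4 were higher and 4 lower (36.4% called, against 59.8% of all genes tested), and in WT1-intermediate cells 5 and 5 (45.5%, against 57.9%). The core maturation factor Pomp fell with the core subunits, from 11.69, 11.66 and 11.60 in WT1-negative cells to 10.92, 10.57 and 10.90 in WT1-high and 11.20, 10.85 and 10.84 in WT1-intermediate cells. Its differences were -0.85 and -0.68, with no overlap. The ubiquitin receptor gene Adrm1 fell by 0.51 and 0.60. Nfe2l1, which encodes the activator of subunit genes, rose by 0.63 and 0.51, the opposite direction to most of the core. Ddi2, which encodes the protease that releases that activator, fell by 0.52 and 0.57. The Ddi2 probe was near background, detected on 2 of 3 WT1-high, 1 of 3 WT1-intermediate and all 3 WT1-negative arrays.

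Usp14, a deubiquitinase, rose by 1.36 and 1.37, the ubiquitin ligase gene Ube3a by 1.32 and 1.25, and AI314180, the mouse gene for the adaptor Ecm29, by 1.01 and 1.16. All 3 probes held 50% G and C or less. The small cap subunit gene Shfm1 rose by 0.67 in WT1-intermediate cells and stood at 0.20 in WT1-high cells. In the contrast of the liver populations 0 of the 22 were called, against 3.55% of all probes.

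Of the interferon-induced catalytic subunits left out of the set, Psmb8 fell by 1.02 and 0.87, from 11.00, 11.13 and 11.14 in WT1-negative cells. Psmb9 stood at 0.19 and 0.21 and Psmb10 at -0.06 and 0.17, with overlapping groups. The second Psmb8 probe fell by 0.78 in WT1-high cells and stood at -0.24 in WT1-intermediate cells.

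Probes of the same gene did not always move together. Of 18 genes with more than 1 tested probe, Psmd9, Psmd10, Psmd12 and Psmg2 had probes called in opposite directions with WT1-high cells, and Psmd7, Psmd12 and Psmg2 with WT1-intermediate cells. The gap between the highest and the lowest probe exceeded 1 in 9 genes in each comparison. It was widest for Psmd12, a lid subunit, whose reported probe of 56% G and C fell by 0.54 and 0.60 while a probe of 46% rose by 2.09 and 1.91. For Psmd10, read by 3 probes, 1 probe rose by 0.47 and another fell by 0.66 in WT1-high cells. The rising probe (ILMN_2694080) read 8.54, 8.49 and 8.63 against 8.39, 7.86 and 7.99 in WT1-negative cells, and the falling one (ILMN_1239384) 7.14, 7.26 and 7.36 against 7.93, 7.75 and 8.05, so neither pair overlapped. For Psmd7, also read by 3, 1 probe fell by 0.93 and another rose by 0.68 in WT1-intermediate cells. The falling Psmd7 probe (ILMN_1220284) read 8.26, 7.80 and 8.35 against 9.12, 8.93 and 9.14 in WT1-negative cells, and the rising one (ILMN_1253915) 6.38, 6.22 and 5.97 against 5.59, 5.58 and 5.36. For Psmd11, the pair shown above gave 0.10 and 1.76 in WT1-high, and -0.16 and 1.60 in WT1-intermediate cells. Where the probes of a gene differed in composition, the highest value came from the probe poorer in G and C in 12 genes and from the richer one in 4, in both comparisons, and in 2 genes the probes were equal. Values of these genes therefore describe a probe, and a shared direction was found for both probes of Psma7, Psmb2, Psmd2, Psmd6 and Psmd14 in both comparisons. The other Psmd2 probe (ILMN_2682947) was detected in cultured cells only and the other Psmd6 probe (ILMN_1254132) in liver cells only. The reported Psmd6 probe (ILMN_1241910) and the rising Psmd11 probe (ILMN_1214057) were detected on all liver arrays. On the WT1-negative arrays they were detected on 2 of 3 and 1 of 3. The detection filter favoured the direction of these probes, so they add no separate support.

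**Figure D4:**
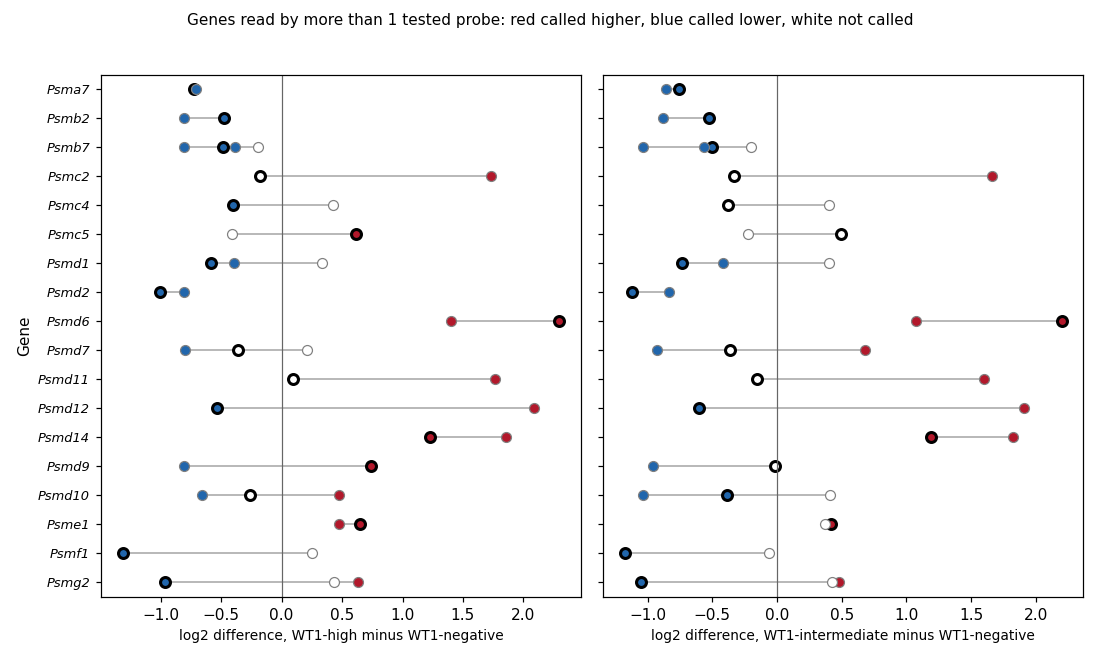
Log2 difference from WT1-negative cells for each probe of the 18 genes read by more than 1 tested probe, in WT1-high (left) and WT1-intermediate cells (right); a heavy outline marks the reported probe, red a call higher, blue a call lower and white no call. The lines for Psmd12, Psmc2 and Psmd11 span from about 0 or below to above 1.6.

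Across the 63 member probes, the difference from WT1-negative cells fell as G and C content rose (Pearson's r -0.66 and Spearman's rho -0.64 with WT1-high, -0.63 and -0.61 with WT1-intermediate cells). This correlation is across probes of the same arrays, which are not independent replicates, so no test is attached. Over all 20573 probes r was -0.25 and -0.27. For the pair of liver populations the members gave -0.21 and all probes -0.01. Of the 19 member probes with over 55% G and C, 16 were lower in WT1-high cells (84.2%, against 42.1% of all probes in that range) and 1 was higher. Of the 7 members with 45% or less, 5 were higher and none lower. Of all probes, 66.7% with 40% or less were higher and 8.68% lower. Over 40% to 45%, 53.5% of all probes were higher and 12.4% lower.

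Each array was adjusted for the trend with G and C over all probes, an alternative chosen after the values were seen. Of the 63 member probes, 40 were then called in WT1-high cells (28 lower and 12 higher), against 55.7% of all probes. In WT1-intermediate cells 38 were called (24 lower and 14 higher), against 53.6% of all probes. The median gene difference became -0.39 and -0.32, beside 0.02 and 0.03 for all genes. The rises of Psmd6 became 1.85 and 1.79, those of Psmd14 1.12 and 1.13, and the falls of Psmd5 1.59 and 1.76, all still called. Psma7 (-0.46 and -0.47), Psmb1 (-0.39 and -0.40), Psmf1 (-1.0 and -0.85), Psmg3 (-1.03 and -0.89) and Psme4 (-0.45 and -0.40) also stayed lower, and Psme1 (0.85 and 0.65) higher. Calls of Psma2, Psmb2, Psmb3, Psmb4, Psmc3, Psmc4, Psmc6, Psmd9, Psmd12 and Psme2 were lost in WT1-high cells, and calls of Psmb2, Psmb4, Psmb6, Psmd4, Psmd10, Psmd12, Psmd13 and Psme2 in WT1-intermediate cells. The reported probe of Psmd7 (-0.81 and -0.77) gained a call in both, Psmc1 (-0.35) gained one in WT1-high and Psmc5 (0.56) in WT1-intermediate cells. The cause of the trend was not tested.

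**Figure D5:**
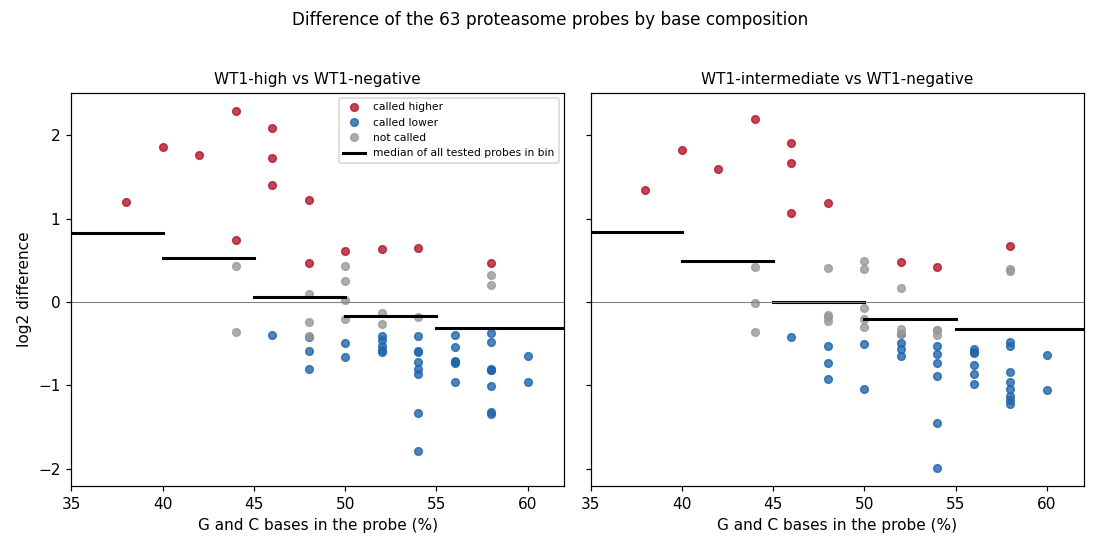
Log2 difference from WT1-negative cells against the share of G and C bases for the 63 member probes; black bars are medians of all tested probes in each range of composition, the outer ranges running on past the axis. In WT1-high cells the bars step down from 0.83 to -0.31, and the called-higher members sit mostly at 50% or less and the called-lower members mostly above it.

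Promoters of the tested genes were read from RefSeq sequence of build GRCm38.p6, as the 250 bases before the start, for the 32 tested genes found in that table. Member shares below count a gene once if any of its promoters held the motif. Shares of all promoters count each promoter, so the units differ. The core of the antioxidant response element, bound by the factor that Nfe2l1 encodes, was searched as TGACNNNGC on both strands and was present in 5 of the 32 (15.6%, against 10.2% of all promoters). These 5 were Psmb5, Psmb6, Psmc6, Psmd9 and Psmd12, of which 2 were lower and 2 higher in WT1-high cells by reported probe. Psmd9 and Psmd12 had probes called in opposite directions there. The calls of Psmc6, Psmd9 and Psmd12 were lost after the G and C adjustment. A link between the motif and direction was not tested. The Psmb6 promoter (chr11:70525107-70525356, plus strand) and that of Psmc6 (chr14:45329574-45329823, plus strand) are shown because both hold the motif, in capitals, and their genes moved in opposite directions.
Psmb6: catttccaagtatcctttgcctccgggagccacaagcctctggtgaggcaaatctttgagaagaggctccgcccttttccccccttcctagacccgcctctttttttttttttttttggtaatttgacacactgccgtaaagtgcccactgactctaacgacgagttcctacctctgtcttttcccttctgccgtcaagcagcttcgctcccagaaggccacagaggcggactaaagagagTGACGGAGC
Psmc6: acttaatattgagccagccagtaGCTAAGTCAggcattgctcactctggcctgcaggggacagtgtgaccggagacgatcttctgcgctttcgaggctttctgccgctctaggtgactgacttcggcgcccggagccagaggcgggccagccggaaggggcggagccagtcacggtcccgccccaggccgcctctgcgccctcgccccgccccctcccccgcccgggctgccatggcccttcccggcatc
In Psmb6 the match starts 9 bases before the start, and in Psmc6, where it reads on the other strand, 227 bases before it. The sequence GCGTGGG, the core of a site that WT1 binds, was present on either strand in 2 of the 32, Psma7 and Psme2 (6.25%, against 4.3% of all promoters). Both genes were lower in both liver groups by reported probe. After the G and C adjustment Psme2 (-0.30 and -0.26) was called in neither comparison. A link between this motif and direction was not tested either. In the Psma7 promoter (chr2:180042465-180042714, minus strand) the match, in capitals on the other strand, starts 169 bases before the start.
Psma7: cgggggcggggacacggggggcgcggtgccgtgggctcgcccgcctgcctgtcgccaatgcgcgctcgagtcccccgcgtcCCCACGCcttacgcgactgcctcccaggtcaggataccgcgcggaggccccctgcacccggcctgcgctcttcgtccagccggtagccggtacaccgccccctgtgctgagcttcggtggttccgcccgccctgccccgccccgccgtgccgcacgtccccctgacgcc
A match of letters is a description of the sequence, and binding at these promoters was not measured here.

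Members without a result were Psma1, Psma3, Psma6, Psmb11 and Psmd3. Each of their probes was detected on 0 of 9 arrays, as were 9 further probes of tested genes, which makes 15 probes in all. Psmb11 is known from the thymus, whereas Psma1, Psma3, Psma6 and Psmd3 encode subunits of every proteasome. No level or difference is given for them.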

How the data were processed

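The authors exported probe summaries from BeadStudio as linear intensity values that were not normalised, and deposited them with a detection p-value for each probe and array, from negative control beads. A joined table deposited beside them held identical intensities (largest difference 0). One column carried the number 29 where its sample label says 30; its mark for low GFP and the joined table placed it among the WT1-intermediate arrays.

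Following the study's methods, limma 3.58.1 in R 4.3.3 was used: background correction with 936 negative controls, offset 16, quantile normalisation with control probes, and log2. A probe was kept where 3 or more of the 9 arrays had a detection p under 0.05 (20573 of 45281), and 1 linear model with 3 groups was fitted to all of them, with Benjamini-Hochberg adjustment over all tested probes; a call is an adjusted p under 0.05. The steps were tested on simulated data. "At least" folds set the brighter group against the background limit of the dimmer one.

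The members and gene lists were chosen with earlier results of these data known. Genes described in full were, in each role and comparison, those with the largest rise and the largest fall among called genes whose groups did not overlap, plus Psme1, Psme2, Psme3, Psme4, Psmf1 and the Psmg genes; genes whose probes were called in opposite directions were named, and the rest were added after their values were seen. Same-numbered WT1-high and WT1-intermediate arrays deviated together (r 0.352, 0.338 and 0.468, against -0.386 to 0.034 for other pairs), with 29 paired to 30. The p-values measure the spread between these arrays, whose number limits the precision. Alternatives covered background correction, offset, normalisation, filter, fit, replicate block, array weights, each array left out and probe G and C content.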

Additional observations from a re-analysis of the deposited data

How the results depend on the processing

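Scaling each array by the median of all its probes gave 11 member calls between WT1-high and WT1-intermediate cells, among 12.8% of all probes. The quantile values gave 0 there, and the median gene difference became 0.705. The same scaling left 28 of the 63 member probes called between WT1-high and WT1-negative cells, against 46.4% of all probes. It moved the median between WT1-intermediate and WT1-negative cells to -1.118 and Psme1 in that contrast to -0.21. With the median taken over tested probes, chosen after seeing the data, these medians were 0.213 and -0.691. The adjustment for G and C content, also chosen after seeing the data, moved the median of the latter contrast to -0.315. Requiring a 2-fold change as well left 13 of the 63 member probes called with WT1-high and 16 with WT1-intermediate cells, against WT1-negative cells. Of all probes, 29.5% and 27.6% were then called. Leaving out 1 array at a time gave 0 to 1 calls between the liver populations, the 1 being Psmd9 without WT1-high replicate 1. Against WT1-negative cells it gave 40 to 50 calls with WT1-high cells, beside 51.6% to 60.4% of all probes. With WT1-intermediate cells it gave 38 to 45, beside 49.9% to 58.6% of all probes. Single calls with WT1-high cells that were lost without at least 1 array were Psma2 (-0.43 to -0.34 over those fits), Psma4 (-0.45 to -0.31), Psmb4 (-0.38 to -0.35), Psmc3, Psmc4 (-0.44 to -0.35), Psmc5 (0.52 to 0.59), Psmd9 and Psmd12 (-0.49 to -0.49); with WT1-intermediate cells they were Psmb6, Psmd4 (-0.51 to -0.39), Psmd10 (-0.42 to -0.31) and Psme1. With the replicate block the pairing gave 0 member calls between the liver populations in each form tried, and 49 or 51 with WT1-high and 44 or 51 with WT1-intermediate cells against WT1-negative cells, so it moved no count of member calls by over 1.5 times, while the share of all probes called between the liver populations rose from 3.55% to 8.73% (random block) and 8.05% (29 and 30 as 1 animal). Against WT1-negative cells, 59.5% (random block) or 64.6% (29 and 30 as 1 animal) of all probes passed with WT1-high cells. With WT1-intermediate cells 58% or 63.4% passed. A block by slide was not run, since no slide is named in the files used here. The cause of these differences was not tested. Psmc6 and Psma8 were detected in only some of the groups, so their folds are bounds.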
